A study of Arabidopsis thaliana with 18 samples.

Results

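The polysomal RNA of the Arabidopsis rpl24b mutant was compared with that of wild type (WT), over all 22746 probe sets of the Affymetrix ATH1 array. Members were the 6 arrays titled as polysome samples of either genotype, 3 of rpl24b and 3 of WT, of 18 arrays in the series. Of the others, 6 held total RNA (TC) and 6 held nonpolysomal RNA with monosomes (NP) of the same 2 genotypes. Each polysomal array (PL) held biotin-labelled RNA from the heavier part of a sucrose gradient, prepared from the aerial parts of seedlings aged 10 to 12 days. Seedlings of both genotypes had grown on full-strength Murashige and Skoog salts with 1% sucrose at 22 °C under 16 h of light and 8 h of dark, and were harvested 6 h into the light. The rpl24b samples carried the allele stv1-1 in the Wassilewskija (Ws) ecotype. By the study's methods, this line lacks several genes besides RPL24B and carries a transgene for CAPRICE (CPC). The labels give no ecotype for WT. Since the methods describe wild-type plants as Columbia-0 but also speak of the corresponding wild type, the effects of the mutation and of the ecotype cannot be told apart if these WT plants were Columbia-0. Every difference below is between these 2 lines of plants.

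Polysomes are mRNAs that carry several ribosomes at once, and polysomal RNA is therefore enriched in mRNAs that are being translated. An mRNA can gain signal there because more of it exists or because a larger part of it is ribosome-bound, and TC arrays of the same plant samples help to separate these. RPL24 is a ribosomal protein (r-protein) of the large, 60S subunit. It lies near the interface with the small, 40S subunit, and in Arabidopsis it is known for its part in reinitiation of translation after upstream open reading frames. Plastids and mitochondria have ribosomes of their own, whose proteins are encoded partly in the organelle and mostly in the nucleus.

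Signals are log2 values, so that a difference of 1 is a 2-fold difference. The 6 arrays had median signals between 4.90 and 4.95, as the array normalization makes whole arrays alike, so a change in the total amount of polysomes would not be visible. Arrays of the same genotype correlated with r of 0.9915 to 0.9956 and arrays of different genotypes with r of 0.9708 to 0.98, across probe sets. The first principal component held 68.0% of the variance and divided the genotypes, with rpl24b replicate 3 farthest out. The number of arrays limits the precision. Of 3 leaf and shoot markers, RCA, the activase of Rubisco, had a mean signal of 13.34 in rpl24b and 13.41 in WT, whereas FMA, of guard cells, and CLV3, of the shoot meristem, had 4.92 and 3.08 in rpl24b and 4.998 and 3.15 in WT. Among leaf and shoot markers named only through the study's lists, a CER1 probe set fell by 1.59 (limma, adjusted p = 9.3e-04). It was at least 2-fold and past the threshold in 6 of 6 fits with 1 array left out. A dimmer CER1 probe set fell by 0.59 (limma, adjusted p = 0.0323), and AS1 changed by -0.05 (limma, adjusted p = 0.84). Of 3 root markers, the root hair expansins EXPA7 and EXPA18 were below the median over probe sets of 4.93 in both genotypes, and the beta-glucosidase PYK10 had 9.86 in rpl24b and 10.28 in WT (limma, adjusted p = 0.22). The 4 seed storage markers lay between 3.32 and 4.60 in rpl24b, against 3.02 to 3.80 in WT, all below that median, and 2 of these passed the test as higher. Another 4 seed storage genes were named only through the study's lists, which were chosen on these samples, and all 4 passed as higher. Of these, the cruciferin gene CRU3 had 5.15, 6.81 and 5.73 in rpl24b, against 4.49, 3.95 and 3.38 in WT, a change of 1.96 ± 0.38 (SE, limma, adjusted p = 0.00574). CRA1, another cruciferin, changed by 1.60 (adjusted p = 0.0171) and the oleosin gene OLEO2 by 1.21 (adjusted p = 0.0176). Both were at least 2-fold and past the threshold in only some fits with 1 array left out, 3 of 6 for CRA1 and 4 of 6 for OLEO2. Because the study's lists were chosen on these samples, the passing of the 4 genes named through them is no separate support. The other 4 seed storage markers were all higher in rpl24b, at dim signals, and 2 passed. The part of seed storage transcripts in other results was not tested.

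RPL24B was the transcript most depleted from rpl24b polysomes. Its PL signals were 3.30, 3.58 and 3.38 in rpl24b arrays, against 10.83, 10.79 and 10.87 in WT arrays. The mutant arrays were near the bottom of the signal range and the WT arrays far above the median. The change was -7.41 ± 0.11 (SE, limma, adjusted p = 1.89e-10), the largest decrease on the array. The paralogs moved the other way. RPL24A, which encodes the other cytosolic L24 protein, had 11.01, 11.01 and 11.29 in rpl24b and 10.59, 10.49 and 10.75 in WT, a rise of 0.49 ± 0.12 (SE, adjusted p = 0.0182). RPL24C, a more distant relative listed with the family in the r-protein catalogue, had 9.10, 9.14 and 9.16 in rpl24b and 8.00, 7.98 and 8.01 in WT. It rose by 1.14 ± 0.09 (SE, adjusted p = 3.72e-05). No array of one genotype overlapped the other for any of these 3 genes. CPC, a small MYB-like repressor of trichome fate that is expressed from the transgene, had 10.53, 10.31 and 9.95 in rpl24b, against 3.72, 3.37 and 3.13 in WT. Its rise of 6.86 ± 0.18 (SE, adjusted p = 1.26e-08) was the largest increase. Beside RPL24B on chromosome 3, probe sets of 7 genes within 10 genes on either side were named here, RPL24B included. Apart from RPL24B, 2 of them differed by at least 2-fold with an adjusted p under 0.05, as 2.88% of all probe sets did. They were the neighbouring SR protein kinase gene SRPK4 (3.99 in rpl24b and 6.32 in WT) and the SKP1-like gene SK6 (7.74 in rpl24b and 2.22 in WT). Both had a name only through the study's lists, which were chosen on these samples. Their number therefore cannot be weighed against the share of all probe sets.

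Across the array, 4253 probe sets (18.7%) passed an adjusted p of 0.05 (limma), with 2463 higher in rpl24b (10.8%) and 1790 lower (7.87%). A difference of at least 2-fold was required in addition for a call. Such calls numbered 656 (2.88%), of which 390 were higher in rpl24b (1.71%) and 266 lower (1.17%). Decreases were less numerous but reached farther, as 27 probe sets were at least 8-fold lower and 7 at least 8-fold higher. Of the 390 higher ones, 186 had a mean WT signal below the median over probe sets, and of the 266 lower ones, 143 had a mean rpl24b signal below it. For those transcripts the fold change was taken against a dim signal and is less certain. The count ranged from 631 to 721 when any 1 array was left out, and 454 of the 656 were called in each of these 6 fits. It was 631 without rpl24b replicate 3, the array that stood farthest out. In such bulk samples, fewer cells of a type and less RNA per cell cannot be told apart. The plot of change against signal shows how the calls spread over dim and bright transcripts.

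**Figure D1:**
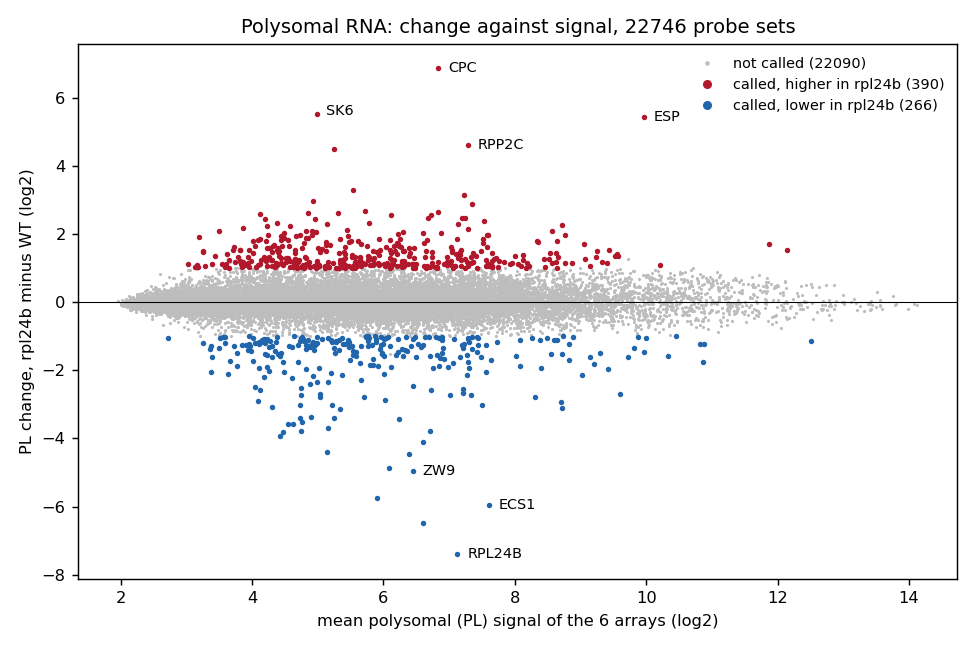
Change in PL signal between genotypes (rpl24b minus WT, log2) against the mean PL signal of the 6 arrays (log2) for 22746 probe sets, with the 390 called higher in red, the 266 called lower in blue and the rest in grey. CPC and RPL24B are at the extremes, and most calls lie at signals below 8.

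The named transcripts with the largest changes included genes of glucosinolate breakdown, the ribosomal stalk, the cell wall and defence. They are the 10 largest of each direction among called probe sets of 1 locus whose mean signal was no lower than the median, 217 higher and 144 lower. Of the increases, ESP stood out by its level. It encodes the epithiospecifier protein, which diverts glucosinolate breakdown from isothiocyanates to nitriles and epithionitriles. ESP had 12.70, 12.60 and 12.74 in rpl24b, against 7.32, 6.85 and 7.54 in WT, and rose by 5.44 ± 0.16 (SE, adjusted p = 3.92e-08). The 3 rpl24b arrays were all more than 5 above the WT arrays. RPP2C, for an acidic P2 protein of the ribosomal stalk, had 9.43, 9.90 and 9.44 in rpl24b, against 4.76, 5.09 and 5.10 in WT (4.61 ± 0.15, SE, adjusted p = 6.34e-08). EXT4, an extensin of the cell wall, rose by 2.63 ± 0.17 (SE, adjusted p = 6.76e-06), with 8.50, 8.06 and 7.87 in rpl24b and 5.53, 5.73 and 5.27 in WT. AT3G15720, which belongs to the pectin lyase-like family, rose by 2.62. The remaining increases were CPC and SK6, given above, and AT5G53240, AT1G73120, AT2G35820 and AT2G15560, whose changes were 3.28, 3.15, 2.88 and 2.67.

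The 10 largest decreases had means below the median over probe sets in rpl24b and above it in WT, RPL24B among them. AT1G66100, a thionin, which is a small antimicrobial peptide, had 3.47, 3.08 and 3.57 in rpl24b, against 10.07, 9.32 and 10.15 in WT. Its change was -6.47 ± 0.21 (SE, adjusted p = 6.34e-08). ECS1, a cell wall protein linked to resistance to Xanthomonas, had 4.66, 4.79 and 4.46 in rpl24b, against 10.74, 10.46 and 10.54 in WT (-5.94 ± 0.12, SE, adjusted p = 3.35e-09). ZW9, of the TRAF-like family, had 4.01, 3.37 and 4.53 in rpl24b and 9.09, 8.83 and 8.87 in WT, a change of -4.96. JAL33, a jacalin-related lectin, had 5.10, 4.83 and 4.55 in rpl24b and 8.41, 8.73 and 8.68 in WT (-3.78 ± 0.15, SE, adjusted p = 2.13e-07). HTB11, an H2B histone, fell by 4.11 ± 0.16 (SE, adjusted p = 2.13e-07), with 4.60, 4.46 and 4.58 in rpl24b against 8.995, 8.70 and 8.28 in WT. The lipid transfer protein gene LTP fell by 4.86 and the S-locus lectin kinase gene AT1G11280 by 3.13. AT3G47250 and AT1G23960 fell by 5.76 and 4.39. For all 20 genes the 3 rpl24b arrays did not overlap the 3 WT arrays, which the choice of genes required. Beside that, 34.4% of all probe sets did not overlap.

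**Figure D2:**
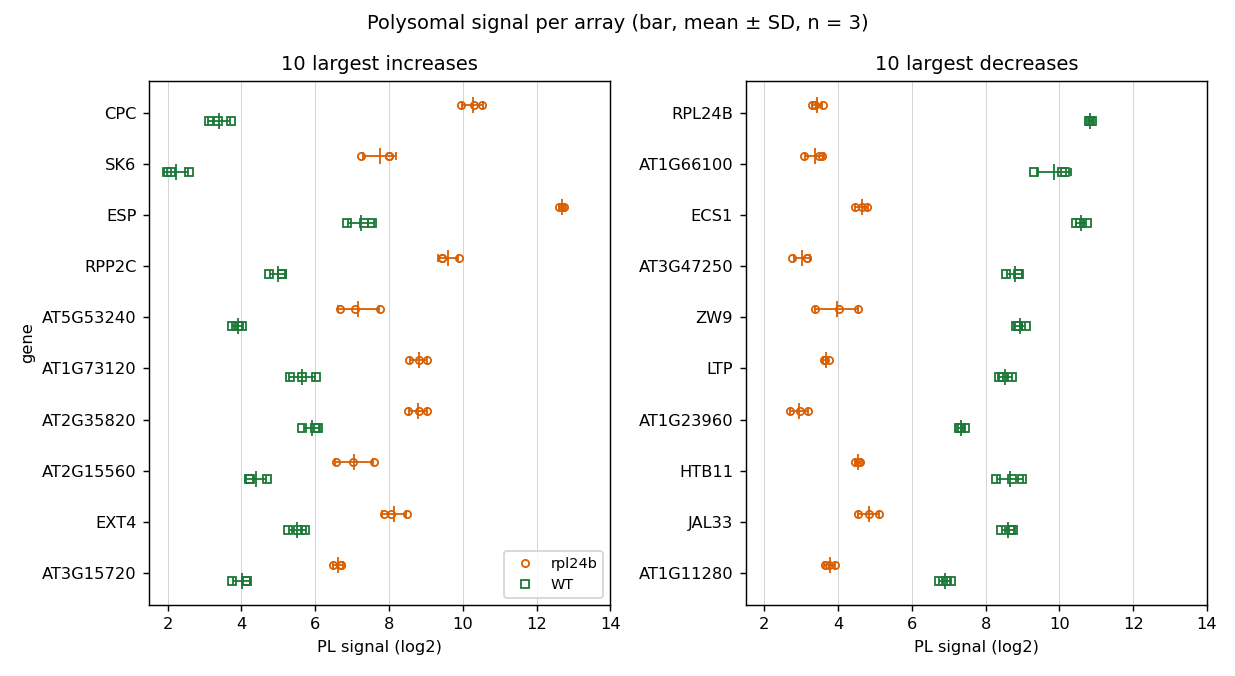
PL signal (log2) in each rpl24b array (circles) and each WT array (squares) for the genes with the 10 largest increases (left) and the 10 largest decreases (right), with a bar for mean ± SD of 3 arrays. ESP is at 12.68 in rpl24b and 7.24 in WT, and RPL24B at 3.42 in rpl24b and 10.83 in WT.

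The mRNAs of cytosolic r-proteins were more abundant in rpl24b polysomes almost as a body. Of 216 probe sets that the catalogue assigns to them, 165 passed as higher and 4 as lower, or 76.4% and 1.85%, beside 10.8% and 7.87% of all probe sets. Their median change was 0.54, beside 0.00 over all probe sets, and it was 0.45, 0.59 and 0.57 in replicate pairs 1, 2 and 3. The quartiles of the list were 0.38 and 0.73. The median signal of the list was 10.55, 10.55 and 10.73 in the rpl24b arrays, against 10.03, 9.95 and 10.03 in the WT arrays. Both subunits moved, with 103 of 130 probe sets higher and a median of 0.55 for 60S proteins, and 62 of 86 higher and a median of 0.54 for 40S proteins. With any 1 array left out, between 135 and 149 of the 216 passed as higher (144 without rpl24b replicate 3). In 18 of the 216 the probe set matches several loci, and close paralogs can share hybridization.

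The median change differed with the level of the mRNA. Among the 126 r-protein probe sets with a mean signal of 10 or more, 105 passed as higher and the median change was 0.53. For signals between 8 and 10 it was 0.71 over 48 probe sets. Between 6 and 8, the median was 1.15 over 15 probe sets, 14 of which passed as higher, with 9 called higher and 1 called lower. Of all 5500 probe sets of that class, 858 passed as higher and 134 were called higher. In the 27 probe sets below 6 the median was 0.04 and 2 passed as higher. All probe sets of these signal classes had medians of 0.06, 0.03, 0.02 and 0.00, from the brightest class to the dimmest. Those that passed as higher were 154 of 607 in the brightest class and 1117 of 14875 in the dimmest.

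Of the 216 r-protein probe sets, 17 were called higher and 1 lower, which was RPL24B, beside 1.71% and 1.17% of all probe sets. After RPP2C, the greatest rises were in RPS27aA, RPL30A and RPS9C. RPS27aA is made as a fusion with ubiquitin, and it had 7.11, 7.27 and 7.28 in rpl24b, against 5.35, 5.14 and 5.18 in WT (1.998 ± 0.11, SE, adjusted p = 1.94e-06). RPL30A, of the 60S subunit, had 7.16, 6.76 and 6.63 in rpl24b, against 5.32, 4.87 and 4.83 in WT (1.84 ± 0.17, SE, adjusted p = 7.11e-05). RPS9C, of the 40S subunit, had 8.20, 8.39 and 8.53 in rpl24b and 6.90, 6.35 and 6.71 in WT (1.72 ± 0.15, SE, adjusted p = 5.21e-05). In these genes the rpl24b arrays were all above the WT arrays by more than 1. Other called members were RPS2D, RPS8B, RPL27A, RPL11B, RPL35B, RPS16B, RPS15D, RPL9D, RPS11B, RPL24C, RPL17A, RPP0C and RPP0D, with changes between 1.04 and 1.60. Against the direction of the list, RPP0A fell by 0.95 (adjusted p = 0.0108), RPL3B by 0.56 (adjusted p = 0.0481) and the probe set shared by several RPS2 genes by 0.44 (adjusted p = 0.0358). RPP0A and RPL3B were dim, with 3.84 and 4.88 in rpl24b and 4.79 and 5.44 in WT. These fits used limma with Benjamini-Hochberg adjustment.

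Nuclear-encoded r-proteins of the 2 organelles behaved differently from each other. For mitochondrial ribosomes, 29 of 46 probe sets passed as higher (63%) and 1 as lower, with a median change of 0.53. The replicate pairs had medians of 0.35, 0.54 and 0.65. mRPL14 (HLL), known for its part in ovule development, led this list with 7.32, 7.64 and 7.73 in rpl24b, against 5.52, 5.90 and 5.85 in WT. It rose by 1.81 ± 0.14 (SE, limma, adjusted p = 2.63e-05), and mRPL19 fell by 0.89 (adjusted p = 0.00216). For plastid ribosomes, 5 of 49 passed as higher (10.2%) and 4 as lower (8.16%), close to the shares over all probe sets, and the median was -0.01. The difference between the lists was not tested. Even so, 2 plastid r-protein mRNAs were strongly reduced. pRPL27 had 8.13, 8.21 and 8.43 in rpl24b, against 10.81, 10.996 and 11.05 in WT (-2.69 ± 0.12, SE, adjusted p = 4.07e-07). pRPL9 had 8.39, 8.45 and 8.47 in rpl24b, against 10.30, 10.44 and 10.47 in WT (-1.97 ± 0.10, SE, adjusted p = 1.31e-06). A dim pRPL12 copy rose by 1.35 ± 0.13 (SE, adjusted p = 1.37e-04), with 5.09 in rpl24b and 3.74 in WT.

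**Figure D3:**
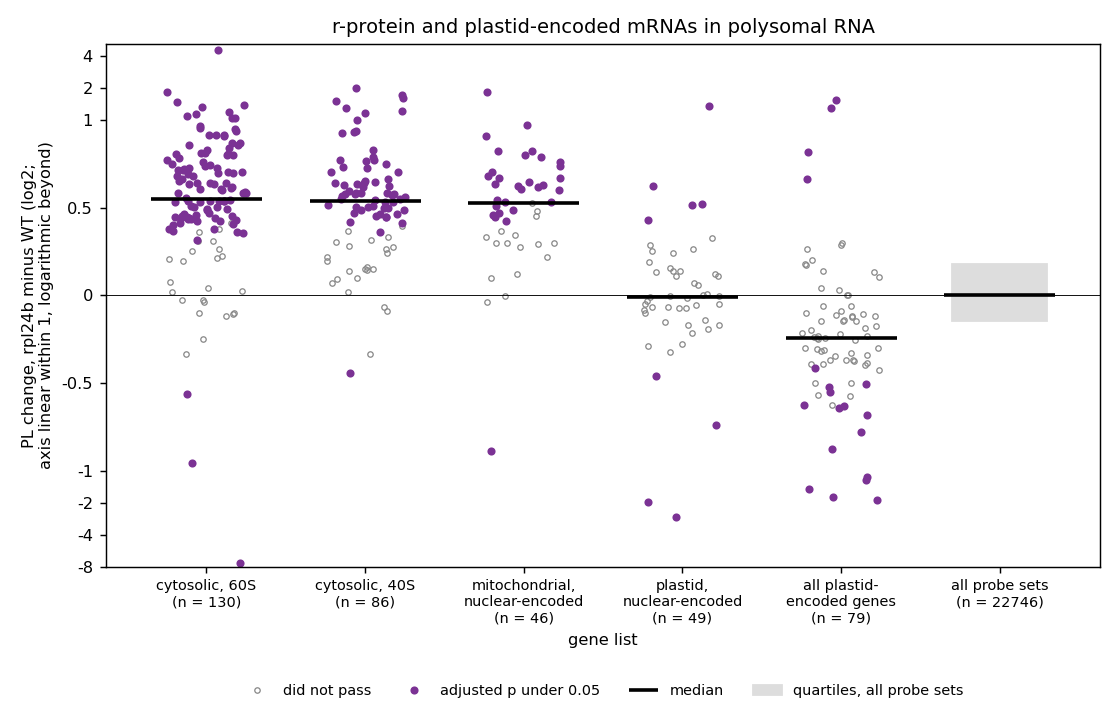
Change in PL signal (rpl24b minus WT, log2, on an axis that is logarithmic beyond 1) for each probe set of the r-protein lists and of plastid-encoded genes, filled where adjusted p was under 0.05, with list medians as lines and the quartiles of all probe sets as a grey box. Medians are 0.55 (60S), 0.54 (40S), 0.53 (mitochondrial), -0.01 (plastid, nuclear-encoded) and -0.25 (plastid-encoded).

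Transcripts of the plastid genome tended to be lower. Plastid mRNAs are translated on plastid ribosomes, and their polysomes sediment in the same gradients. The study cautions that its arrays favour polyadenylated mRNAs, and that polyadenylation in organelles precedes degradation. The values of organelle-encoded genes may therefore not stand for all of their mRNA. Of 79 probe sets, 15 passed as lower (19.0%) and 4 as higher (5.06%), beside 7.87% and 10.8% of all probe sets. A value below 0 was found in 62 of the 79 (78.5%), beside 49.4% of all probe sets. The median change was -0.25, with -0.20, -0.13 and -0.41 in the replicate pairs. Subunits of the photosystems, which capture light in the thylakoid membrane, had 7 of 20 lower, 19 of 20 with a value below 0, and a median of -0.38. The largest fall among them was that of psbK, which had 9.20, 9.31 and 9.17 in rpl24b, against 10.76, 10.69 and 10.65 in WT (-1.48 ± 0.10, SE, limma, adjusted p = 8.17e-06). Its neighbour psbI had 10.32, 10.40 and 10.11 in rpl24b and 11.50, 11.50 and 11.48 in WT (-1.22 ± 0.11, SE, adjusted p = 6.05e-05). Both encode small subunits of photosystem II, and in both the arrays of the genotypes were far apart.

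Of the NDH complex, which carries electrons around photosystem I, 2 of 11 subunits fell (18.2%, beside 7.87% of all probe sets) and the median was -0.26, with -0.42 without WT replicate 1 and -0.15 without WT replicate 2. They were ndhA, with 6.80, 7.35 and 7.30 in rpl24b and 8.73, 9.02 and 9.28 in WT, and ndhI, with 9.65, 10.27 and 10.04 in rpl24b and 11.36, 11.87 and 11.97 in WT. Their changes were -1.86 ± 0.18 (SE, adjusted p = 9.36e-05) and -1.74 ± 0.19 (SE, adjusted p = 2.21e-04) with limma. Subunits of the ATP synthase and of the cytochrome b6f complex had medians of -0.46 and -0.29, with 2 of 6 lower in each. The b6f median was -0.18 without rpl24b replicate 3. atpH and petB were the members with the largest change, -0.64 (adjusted p = 0.0343) and -0.78 (adjusted p = 0.0151). Other plastid transcripts went up. pRPS4, of the small plastid subunit, had 12.91, 13.06 and 12.79 in rpl24b, against 11.20, 11.57 and 11.37 in WT (1.54 ± 0.12, SE, adjusted p = 3.07e-05). The TC change of pRPS4 was 2.55 ± 0.44 (SE), and the difference between its PL and TC changes did not pass (limma, adjusted p = 0.318). rpoC2, of the plastid RNA polymerase, rose by 1.29 ± 0.22 (SE, adjusted p = 0.00323), with 6.28 in rpl24b and 4.99 in WT, but this was not past the threshold with all 18 arrays in 1 fit (adjusted p = 0.12) and was 0.98 without rpl24b replicate 2. The count of 15 plastid-encoded transcripts fell to 8 without rpl24b replicate 1, to 9 without WT replicate 2 and to 7 with all 18 arrays in 1 fit. Over the 19 probe sets of the mitochondrial genome the median was -0.09 and 1 passed, nad1, which fell by 0.68 (adjusted p = 0.00825).

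Among nuclear photosynthesis genes, the listed members of the photosystem and Calvin cycle lists had small differences. Members named only through the study's lists were left out, 4 photosystem, 4 Calvin cycle and 3 light-harvesting ones. Of 8 photosystem and electron transfer proteins 0 passed, also at an unadjusted p of 0.05, and the largest value was that of PSBY, -0.23 ± 0.11 (SE, limma, adjusted p = 0.187). Its signals were 12.51, 12.62 and 12.53 in rpl24b and 12.62, 12.91 and 12.83 in WT. Of 4 Calvin cycle genes 0 passed and 1 had an unadjusted p under 0.05 (limma), and their values ran from -0.30 to 0.18. Of 3 light-harvesting proteins of the LHCB4 type, LHCB4.2 fell by 0.77 (adjusted p = 6.45e-04) and LHCB4.3 rose by 0.55 (adjusted p = 0.0136).

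Cell wall and growth genes held a few strong rises. In the cell wall list 7 of 41 passed as higher (17.1%) and 2 as lower (4.88%), beside 10.8% and 7.87% of all probe sets, with a median of 0.01. Another 11 cell wall members, named only through the study's lists, were left out. XTH19, an enzyme that cuts and rejoins xyloglucan, had 6.38, 6.11 and 6.34 in rpl24b, against 3.92, 4.09 and 3.96 in WT (2.28 ± 0.11, SE, adjusted p = 9.32e-07). The pectin methylesterase gene ATPMEPCRB rose by 1.93 ± 0.23 (SE, adjusted p = 3.72e-04), with 5.63 in rpl24b and 3.70 in WT. TUB1, a beta-tubulin, had 6.48, 6.40 and 6.40 in rpl24b, against 4.27, 4.48 and 4.71 in WT (1.94 ± 0.12, SE, adjusted p = 5.75e-06), while 5 of the 7 tubulins did not pass. These 3 genes were below the median over probe sets in WT and above it in rpl24b. Of 19 auxin response genes 2 passed, both lower, with IAA29, a repressor of auxin signalling, at -0.74 (adjusted p = 0.00844). Limma was used for each.

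Families of defence and secondary metabolism had members that rose and members that fell, in shares that were for several lists near those of all probe sets (10.8% and 7.87%). Members named only through the study's lists were left out, 4 for jasmonate and 6 for cytochromes P450. The shares of all probe sets include such members, so the 2 kinds of share are not fully alike. Of 9 jasmonate-related genes 3 passed as higher and 2 as lower. The defensin PDF1.2 had 4.41, 5.04 and 3.86 in rpl24b and 3.28, 3.20 and 2.90 in WT (1.31 ± 0.25, SE, adjusted p = 0.00495), whereas the thionin THI2.2 had 8.35, 8.59 and 7.95 in rpl24b and 10.34, 9.64 and 10.34 in WT (-1.81 ± 0.21, SE, adjusted p = 3.50e-04). The defensin LCR67 rose by 1.04, and by 0.80 without rpl24b replicate 3. Of 23 cytochromes P450, 2 were higher and 2 lower (8.7% each). CYP71B26 had 5.96, 5.81 and 6.13 in rpl24b, against 8.75, 8.50 and 8.81 in WT (-2.72 ± 0.13, SE, adjusted p = 5.63e-07), and its relative CYP71B36 rose by 1.78 ± 0.14 (SE, adjusted p = 2.29e-05). Beta-glucosidases likewise had 4 of 22 higher, BGLU15 and BGLU45 being called with 1.54 and 1.48, and 2 lower, led by BGLU40 with -1.78. Glycosyltransferases had 4 of 51 higher (7.84%) and 5 lower (9.8%), near the background, and UGT87A2, linked to flowering time, rose by 1.44. Of 14 glutathione transferases, which conjugate toxic compounds, 3 were higher, among them GSTU15 by 1.57. In the last 3 families the adjusted p of the called genes ran from 2.59e-06 for BGLU40 to 0.00115 for BGLU45 (limma).

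Sugar export genes of the SWEET family had 3 of 16 lower (18.8%), beside 7.87% of all probe sets. SWEET13, a sucrose transporter, had 3.97, 3.84 and 3.96 in rpl24b, against 5.58, 4.60 and 5.42 in WT (-1.28 ± 0.21, SE, limma, adjusted p = 0.00269). SWEET2, a vacuolar transporter, changed by -1.01 ± 0.16 (SE, adjusted p = 0.00233) and did not reach 2-fold without rpl24b replicate 3 or without WT replicate 1. Of 7 histones 1 passed as higher and 2 as lower, and HTB11, given above, was the single call. Among 7 WRKY factors 1 passed, WRKY47 at 0.90 (adjusted p = 0.00605). Of 7 glucosinolate genes, GTR2, a glucosinolate transporter, was higher by 0.70 (adjusted p = 0.00606) and 1 was lower. In 6 flavonoid genes UGT78D1 was lower by 0.66 (adjusted p = 0.0117), and in 6 heat shock genes Hsp70-2 was higher by 0.51 (adjusted p = 0.0138). Cold-responsive LTI30 had -0.86 (adjusted p = 0.0717), with overlapping arrays, and was past the threshold without rpl24b replicate 3. Of 9 U-box ligases 0 passed with limma and 1 reached 0.05 before adjustment, the largest value being -0.36 for PUB19 (adjusted p = 0.198). Of 5 dark- and starvation-induced genes 0 passed and 2 had such an unadjusted p, with -0.65 for SAG29 (adjusted p = 0.0625).

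The PL changes were then set against those in total RNA of the same plant samples, to see which differed between polysomes and total RNA. Nearly all were alike in sign, and the medians were similar in size. Of the 390 probe sets called higher in PL, 389 had a TC change above 0, with a median TC change of 1.15 beside a median PL change of 1.27. Of the 266 called lower, all 266 had a TC change below 0, with a median of -1.48 beside -1.40 in PL. The TC change was at least 2-fold the same way in 238 of the 390 and 216 of the 266. In NP, 386 of the 390 and 264 of the 266 had the sign of the PL change. ESP, ECS1 and the thionin AT1G66100 had TC changes of 6.23 ± 0.26, -5.92 ± 0.12 and -5.88 ± 0.28 (SE).

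The difference between the changes, PL minus TC, was tested for each probe set. It passed an adjusted p of 0.05 in 37 (0.163%), with 22 positive and 15 negative, while 2457 (10.8%) reached 0.05 before adjustment (limma). Of the 656 probe sets called in PL, 237 had such an unadjusted p. The median SE of the difference was 0.15 per probe set, and the smallest difference that passed was 0.79 in size, so smaller ones were not detectable singly here. Of the 37, 31 had a mean PL signal below the median, and 0 passed when the test was confined to the 11373 brighter probe sets, of which 1460 had an unadjusted p under 0.05. The count was 15 with the replicate number as a block and between 2 and 22 with 1 plant sample left out, the lowest being that without WT replicate 3. AT2G40960 was the bright transcript of 1 locus whose gain was greatest in polysomes relative to total RNA. It had PL signals of 7.36, 7.46 and 7.16 in rpl24b, against 5.59, 5.19 and 5.04 in WT, a change of 2.05 ± 0.15 (SE, adjusted p = 1.45e-05) beside 1.09 ± 0.14 (SE) in TC. The difference of 0.97 had an adjusted p of 0.02 (0.0523 with the block). In AT4G15660, a glutaredoxin, PL signals were 4.05, 3.26 and 3.75 in rpl24b, against 6.32, 6.44 and 6.35 in WT. Its PL change of -2.69 ± 0.17 (SE, adjusted p = 6.43e-06) was larger in size than the TC change of -1.43 ± 0.10 (SE), with a difference of -1.25 (adjusted p = 0.0222 with limma). The TC means of this gene were dim, 3.08 in rpl24b and 4.51 in WT, so that the TC change and the difference are uncertain. RPL24B was the third, with a PL minus TC difference of -0.91 (limma, adjusted p = 0.0464, and 0.0857 with the block). As the mutant line lacks this gene, its rpl24b means were near the bottom of the signal range, 3.42 in PL and 3.62 in TC. The WT means were 10.83 in PL and 10.12 in TC. Set against signals so low, the difference is no measure of a change in the polysomal share of this mRNA.

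**Figure D4:**
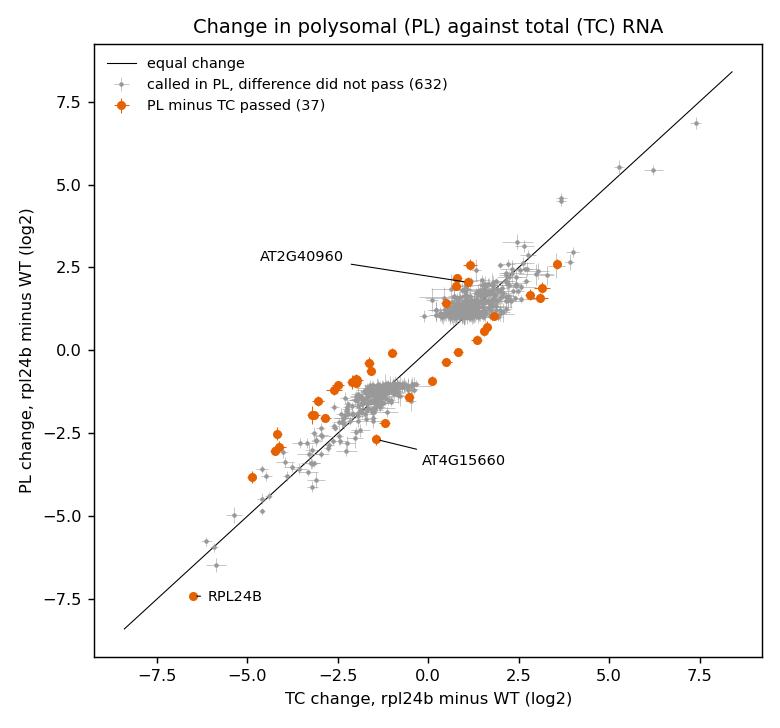
PL change against TC change (both rpl24b minus WT, log2, with SE bars) for the 632 probe sets called in PL whose PL minus TC difference did not pass (grey) and the 37 whose difference passed (orange), with a line of equal change. Called probe sets lie along the line in both directions, and AT2G40960, AT4G15660 and RPL24B lie off it.

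Cytosolic r-proteins had a median TC change of 0.43, beside 0.54 in PL, and a median PL minus TC difference of 0.11. At an unadjusted p of 0.05 the difference was positive in 32 (14.8%) and negative in 1 of the 216, beside 5.74% and 5.06% of all probe sets. With adjustment, 2 of 216 probe sets passed the test of that difference, RPL24B and the dim RPP0A. In NP their median change was 0.27. The mitochondrial r-proteins had medians of 0.29 in TC and 0.25 in NP, beside 0.53 in PL, and a PL minus TC median of 0.22. Plastid-encoded transcripts had medians of 0.06 in TC and 0.15 in NP, beside -0.25 in PL, and a PL minus TC median of -0.34. Among the plastid-encoded genes named here, the SE of the TC change ran from 0.31 for psbI to 0.81 for atpH. Over all probe sets the median SE of the TC change was 0.11. The sign of the plastid TC median and the size of the plastid difference are therefore uncertain. Of the 46 mitochondrial r-protein probe sets 0 passed singly and 14 had an unadjusted p under 0.05, all 14 positive (30.4%). Of the 79 plastid-encoded ones 0 passed and 8 had such a p, all 8 negative (10.1%), beside the same 5.74% and 5.06% (limma, adjusted over all probe sets). Over all probe sets the PL minus TC median was -0.01.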

How the data were processed

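Per the labels, the authors extracted RNA with Trizol, took polysomal and nonpolysomal RNA from sucrose gradients and hybridized biotinylated cRNA to ATH1 arrays. The deposited log2 signals are RMA values that the authors made with the affy package (both named in the submitters' processing notes, as is MAS5; versions are not given in the sources used here). RMA corrects background, equalizes the arrays and summarizes probes. The deposited translation states were not used here.

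A linear model per probe set compared 3 rpl24b with 3 WT arrays, using eBayes of limma 3.58.1 under R 4.3.3. P-values of all 22746 probe sets were adjusted together by the Benjamini-Hochberg method. Adjusted p under 0.05 is "passed", and at least 2-fold in addition is "called". PL minus TC was fitted on the difference of the 2 log2 signals per plant sample, and changes in TC and NP are values without a test. Simulated data had independent normal noise with the spread of each probe set in these arrays, and no effect shared within an array or growth. With 200 probe sets changed, 98% of log2 changes of 1.5 or 2 were called in PL, with 2 false calls. Changes nearer the 2-fold minimum were not simulated, so these values do not cover such calls.

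Names came from the platform list (13309 probe sets with 1 gene and 457 with several), r-protein catalogues (339) and the study's gene lists (455). The last were chosen on these samples, so they gave names (CPC, SK6, SRPK4, ESP, EXT4, LTP, CER1, AS1, CRU3, CRA1, OLEO2) but no list members. Another 8186 probe sets stayed unnamed here. Gene loci were checked against the RefSeq table of TAIR10.1. The members and the gene lists were chosen with earlier results of these data known, and 13 lists were added once the names were seen. Named genes were the RPL24 genes, CPC, the 10 largest changes each way (called, 1 locus, arrays not overlapping, signal at or above the median), up to 2 called members per list and direction or else the largest member of a list of at least 5, and up to 5 PL minus TC differences each way. SRPK4, the other called r-proteins, the r-proteins that fell, single markers, CER1, AS1, CRU3, CRA1 and OLEO2 were named after their values were seen.

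Per the labels, the 3 replicates grew at different times and the mutant grew beside wild type. A replicate number was therefore read as 1 growth, which the labels do not state outright. After removal of genotype means, arrays of the same number correlated at 0.11, 0.05 and 0.28 in PL, against -0.24 to 0.12 for other pairs. Alternatives were a replicate block, other scalings, filters, moderation, all 18 arrays in 1 fit, and omission of each array. One of the 3 same-number correlations was under 0.1. Sequences were not analysed here.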

Additional observations from a re-analysis of the deposited data

Results flagged for a closer look

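The test of the PL minus TC difference passed for 37 probe sets. The 3 genes given here are those also called in PL, of 1 locus and with a mean PL signal at or above the median. The PL minus TC difference was 0.97 for AT2G40960, -1.25 for AT4G15660 and -0.91 for RPL24B. Adjusted p was 0.02, 0.0222 and 0.0464 with limma. With the test confined to the brighter probe sets, adjusted p was 0.0524, 0.0646 and 0.0991 in the same order (limma). In the fits that left out 1 plant sample, adjusted p of RPL24B ran from 0.0828 to 0.195, and that of the other two was above the threshold in 4 of 6 and 5 of 6 fits. The sign was the same throughout. RPL24B is missing from the mutant line, and its rpl24b means were near the bottom of the signal range (3.42 in PL and 3.62 in TC). Its difference is therefore no measure of a change in the polysomal share of this mRNA. In AT4G15660 the TC means were dim (3.08 in rpl24b and 4.51 in WT), so the size of its difference is uncertain.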

How the results depend on the processing

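The array number and the dim signal of many called transcripts limit these results. The count of called PL changes (656) stayed within 1.5 times under each alternative, from 445 of the brighter probe sets to 721 without rpl24b replicate 2. Quantile normalization and centring left 622 and 616 of the 656 called, with 356 or 350 higher and 286 or 290 lower. With only probe sets of 1 locus, 2694 passed adjusted p (1631 higher, 1063 lower), since fewer were tested. With 1 array left out, 3057 to 3528 passed (1809 to 2109 higher, 1238 to 1434 lower) and 631 to 721 were called (357 to 430 higher, 253 to 291 lower).

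Of the 37 PL minus TC differences that passed (23 at least 2-fold), 15 passed with the replicate block (15), 0 among brighter probe sets, and 2 to 22 (2 to 19) with 1 plant sample left out, lowest without WT replicate 3. The block changed no call of a named PL change. Of 64 named PL changes, 59 stayed on their side of the threshold in every fit and 0 turned. The cause of these shifts was not tested.

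Plastid-encoded transcripts passing as lower (15) were 7 with all 18 arrays in 1 fit and 8 to 20 with 1 array left out. Photosystem subunits among them (7) were 3 and 4 to 8. The cytosolic (165) and mitochondrial (29) r-protein counts were 135 to 149 and 23 to 27 with 1 array left out. These counts were chosen after seeing the data.

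Some list medians moved beyond their spread over replicate pairs. With quantile normalization, nuclear plastid r-proteins had -0.0997 and nuclear photosystem proteins -0.0265. With centring, nuclear photosystem proteins had -0.0743 and beta-glucosidases 0.0257. Among brighter probe sets, glutathione transferases had 0.0743, cell wall genes -0.143, beta-glucosidases 0.1278, cytochromes P450 -0.187 and SWEET transporters -0.3742. With 1 array left out, medians ran from -0.066 to 0.0117 for nuclear photosystem proteins, -0.2868 to -0.1713 for flavonoids, -0.0527 to 0.087 for jasmonate genes, 0.1745 to 0.597 for the 5 cold response genes, 0.0324 to 0.0952 for glutathione transferases, -0.2282 to 0.171 for the 5 dark-induced genes, whose sign changed, -0.4326 to -0.1753 for cytochrome b6f subunits and 0.0215 to 0.0602 for beta-glucosidases.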
